A study of Mus musculus with 3 samples.

Results

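Autophagy is the process by which a cell encloses part of its cytoplasm in a double membrane, the autophagosome, and delivers it to lysosomes, and mitophagy is the form that removes mitochondria. The ULK1 kinase complex starts it, the lipid kinase complex around Beclin 1 and VPS34 marks the site, ATG9 and ATG2 supply membrane, and a pair of ubiquitin-like conjugation systems attaches the small ATG8 proteins (LC3 and GABARAP) to the membrane, where cargo receptors bind them. Platelets are shed by megakaryocytes without a nucleus but with mitochondria and lysosomes, so their autophagy runs on protein and RNA received from the parent cell.

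Here 40 genes of this machinery were described, listed by symbol and not by a threshold on any measured value: 5 of initiation, 6 of nucleation, 5 of membrane supply, 11 of conjugation, 5 of the ATG8 family, 6 cargo and mitophagy receptors and 2 regulators, Pink1 and Tfeb. RNA was taken from blood platelets of Nxf1 wild-type BALB/c males aged 20 weeks, in 3 libraries that form 1 group. Replicates 1, 2 and 3 each carry a batch number of their own in the labels, so sample and batch cannot be told apart. The labels do not say whether each sample came from a separate mouse, so every SD below measures only how far these samples lie apart, and that may be technical. Total counts were 26974129, 25189231 and 26111636 in replicates 1, 2 and 3, at which a count of 0 would allow up to 0.111, 0.119 and 0.115 CPM (counts per 1000000 counts of the library, from 3 counts).

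All 12 platelet markers examined were above 1 CPM in every library, and together they took 4.07%, 4.27% and 4.35% of counts in replicates 1, 2 and 3. Red cell and reticulocyte markers took 4.91%, 0.551% and 0.708%, with 11 of 16 in the tables, so replicate 1 stood apart. Leukocyte markers took 0.146%, 0.168% and 0.163%, with 15 of 16 in the tables. Most of that was lysozyme (Lyz2), and without it they summed to 176, 165 and 271 CPM, highest in replicate 3. In such bulk RNA, fewer cells of a type and less RNA per cell cannot be told apart, and an RNA at a few CPM has no certain cell of origin.

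Of the 40 genes, 38 were in the count tables, against 41.6% of RefSeq protein-coding genes. Wipi1, a binder of phosphatidylinositol 3-phosphate, and Atg4c, an ATG8 protease, were not in the tables analysed. Among the 38, 34 (89.5%) reached 1 CPM in every library, against 77.7% of all 9822 genes in the tables, which had been filtered before deposit. A mean of 100 CPM or more was reached by 7 (18.4%), against 7.95% of all genes: Bnip3l, Becn1, Gabarapl1, Map1lc3b, Sqstm1, Gabarapl2 and Pink1. These 7 held 89.2% ± 0.632 (SD, n = 3) of the counts of the 38 genes, which took 0.446% ± 0.0109 of all counts. Levels of different genes are compared below as CPM per 1000 bases of the deposited gene length, called the length-scaled level. On that scale the median of the 38 was 2.69, against 1.49 for all genes, and 23 of 38 lay above that median of all genes. By mean over libraries Bnip3l was highest and Pik3r4 lowest on this scale, 2317-fold apart. Within libraries that ratio was 2196, 7307 and 1443 in replicates 1, 2 and 3, and the genes at both ends changed: Becn1 was highest in replicate 2, and Atg14 lowest in replicates 1 and 3.

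**Figure D1:**
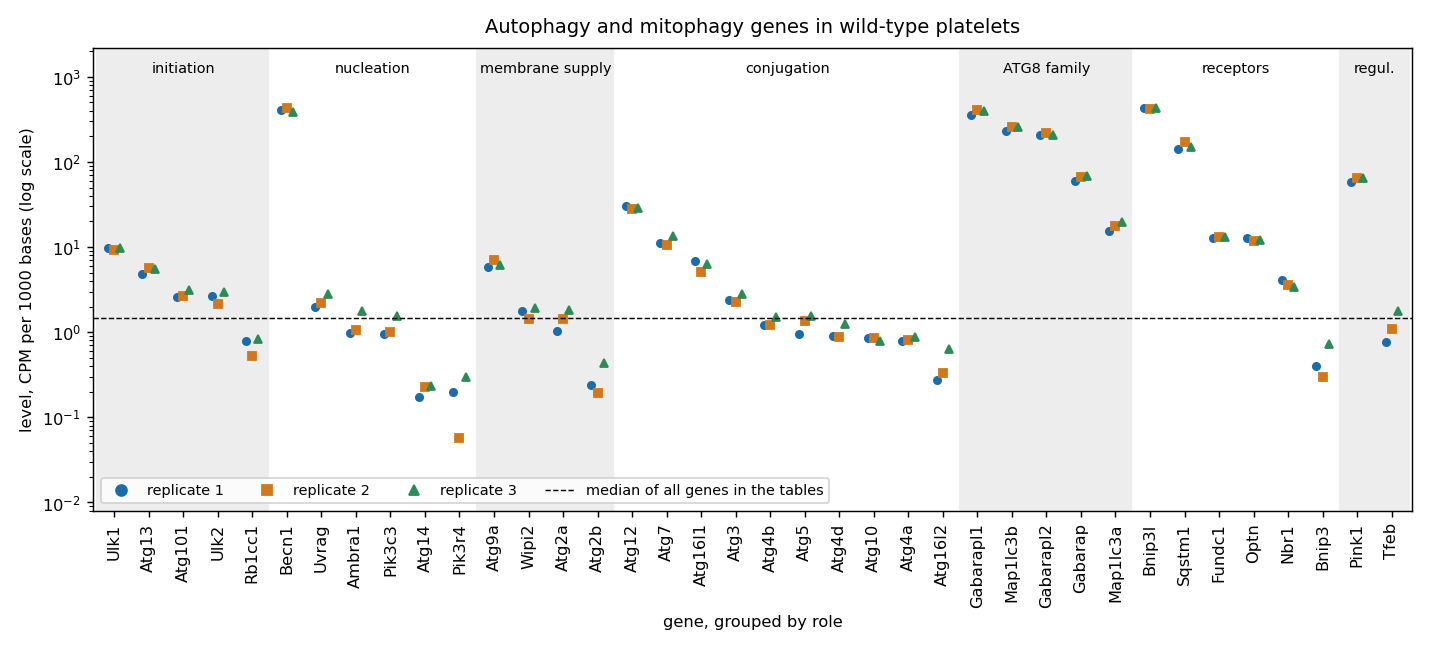
Length-scaled level (CPM per 1000 bases, log scale) of the 38 genes in the tables, grouped by role, with 1 symbol per replicate and a dashed line at the mean of the library medians of all genes (1.48). Within a role 1 or a few genes stand far above the rest, as Becn1 does in nucleation at 408 and Bnip3l among receptors at 426, while the 5 ATG8 genes all lie between 17.5 and 384.

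The medians of the ATG8 family and the receptors differed from each other, and from those of initiation and conjugation, by far more than the libraries did. The length-scaled medians of nucleation (0.972, 1.04 and 1.67) and membrane supply (1.40, 1.42 and 1.86) overlapped the range of conjugation over the libraries. The median member of the ATG8 family was at a length-scaled level of 208, 219 and 208 in replicates 1, 2 and 3, that of the receptors at 12.7, 12.5 and 12.5, that of initiation at 2.69, 2.68 and 3.114, and that of conjugation at 1.08, 1.29 and 1.54. The ATG8 median exceeded the conjugation median by 7.35 ± 0.26 on the log2 scale, the initiation median by 6.22 ± 0.15 and the receptor median by 4.07 ± 0.06 (SD, n = 3). Receptors exceeded conjugation by 3.28 ± 0.27 and initiation by 2.15 ± 0.13, and initiation exceeded conjugation by 1.13 ± 0.16. All 6 differences had 1 direction in every library, but their size depended on the summary. Without division by length, receptors exceeded initiation by 0.86 and the ATG8 family exceeded it by 3.79, and summed over members, receptors exceeded initiation by 4.86 and the ATG8 family exceeded conjugation by 4.07. They carry no p-value, since flipping signs exactly over 3 libraries gives a two-sided p of 0.25 at the least. The order of initiation and conjugation depended on the summary: summed over members, initiation lay below conjugation, at a log2 difference of -1.39. On that same sum, the ATG8 family exceeded the receptors by 0.60.

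**Figure D2:**
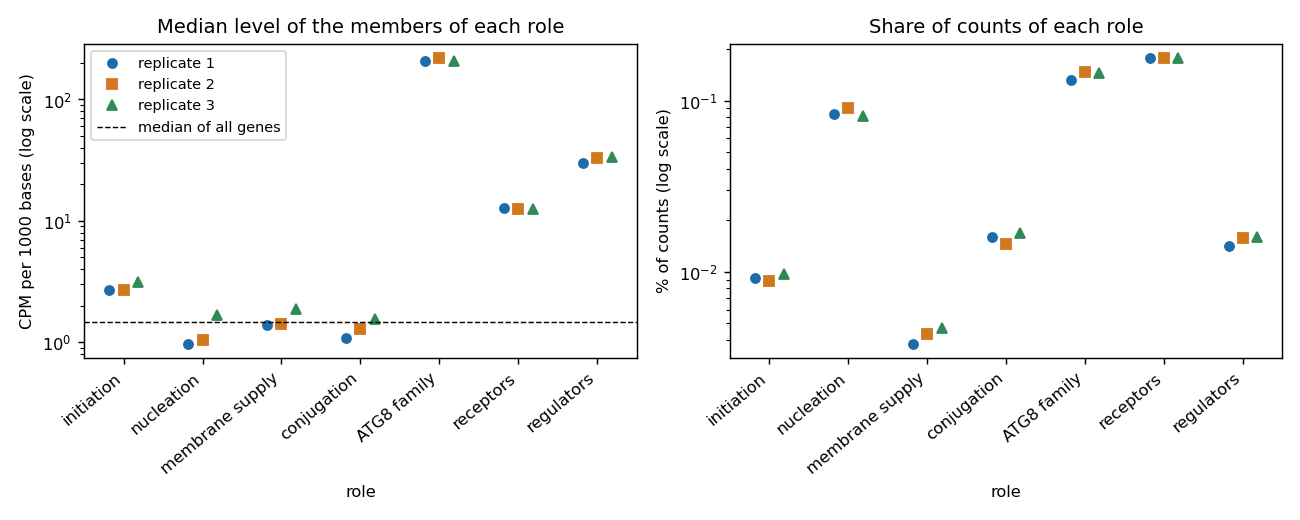
Left, the median length-scaled level (CPM per 1000 bases, log scale) of each role in each replicate, with a dashed line at the mean of the library medians of all genes; right, the share of all counts (%, log scale) that each role took. The ATG8 family has the highest median (212 on average) and the receptors the largest share of counts (0.176%). In the left panel the replicates lie close together for these roles. They lie wider apart for nucleation, with medians of 0.972, 1.04 and 1.67 in replicates 1, 2 and 3.

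ATG8 proteins are the ubiquitin-like tags of the autophagosome membrane, to which receptors dock. All 5 genes of the family were detected, and they took 0.141% ± 0.00794 of counts. Gabarapl1 (chromosome 6, 129533192 to 129542331, GRCm38) was highest at 630, 712 and 703 CPM in replicates 1, 2 and 3. Map1lc3b, which encodes LC3B, the usual marker of autophagosomes, was at 399, 443 and 440 CPM (chromosome 8, 121590438 to 121598760). Gabarapl2, also called GATE-16, was at 204, 214 and 204 CPM (chromosome 8, 111940703 to 111952915). For each of these 3 genes the libraries lay within 1.13-fold of each other on plain totals. After TMM scaling they lay wider apart, with Gabarapl2 at 214, 224 and 187 CPM. Gabarap followed at 66.9, 74.7 and 76.0 CPM, and Map1lc3a, which encodes LC3A, at 14.9, 16.9 and 18.8 CPM. Replicate 1 was lowest for all 5 on these plain totals, but after TMM scaling replicate 3 was lowest for 4 of them, all but Map1lc3a.

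Scaled to length, the order was Gabarapl1 (384 ± 25.3), Map1lc3b (250 ± 14.3), Gabarapl2 (212 ± 6.08), Gabarap (64.7 ± 4.41) and Map1lc3a (17.5 ± 2.02; SD, n = 3), the same in each library. Map1lc3b exceeded Map1lc3a by 3.84 ± 0.11 on the log2 scale of length-scaled levels, or 14.3-fold, and by 4.67 without division by length. Gabarapl2 exceeded Gabarap by 1.71 ± 0.09, and was lower than Gabarapl1 (log2 ratio -0.86 ± 0.08) and Map1lc3b (-0.24 ± 0.07). That last gap was the smallest of these, but had 1 direction in all 3 libraries. Without division by length the ratios to Gabarapl1 and Map1lc3b were -1.71 and -1.04. Gabarapl2 has 3 processed pseudogenes of 96.6% to 99.4% identity over 349 to 352 bases (GENCODE M21), none in the tables, so its level is uncertain where the authors' counting could split reads with them. In GENCODE M21, Gabarapl1 shares up to 377 exon bases with the opposite-strand RNA gene 1700101I11Rik, itself at 13.8 ± 1.62 CPM. The overlap is shorter in the RefSeq coordinates, where 1700101I11Rik ends at 129533284 and Gabarapl1 starts at 129533192. The library kit named in the labels does not mark strand, so reads of such a pair cannot be told apart where they overlap. In GENCODE M21, 14 of the 40 genes overlap an exon of some other gene.

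The levels within the family differ widely, so the start regions of 4 of these 5 genes, 250 bases before to 50 after the annotated start, are shown. That of Atg3, a gene outside the family whose product joins ATG8 proteins to lipid, is shown beside them. These regions are from RefSeq (GRCm38.p6), written 5′ to 3′ on the gene's own strand. Capitals mark matches, on either strand, to CACGTG (the E-box), TCACGTGA (the core of the element bound by TFEB, which contains the E-box), AGATAA (bound by GATA factors of megakaryocytes) and CCGGAAG (bound by ETS factors).
Gabarapl1, chr6:129532942-129533241, plus strand: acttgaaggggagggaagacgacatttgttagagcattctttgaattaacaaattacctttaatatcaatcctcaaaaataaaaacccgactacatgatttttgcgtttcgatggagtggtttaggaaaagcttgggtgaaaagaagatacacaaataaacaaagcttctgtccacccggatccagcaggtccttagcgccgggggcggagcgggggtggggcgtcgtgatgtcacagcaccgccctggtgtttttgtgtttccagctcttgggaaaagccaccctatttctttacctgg
Map1lc3b, chr8:121590188-121590487, plus strand: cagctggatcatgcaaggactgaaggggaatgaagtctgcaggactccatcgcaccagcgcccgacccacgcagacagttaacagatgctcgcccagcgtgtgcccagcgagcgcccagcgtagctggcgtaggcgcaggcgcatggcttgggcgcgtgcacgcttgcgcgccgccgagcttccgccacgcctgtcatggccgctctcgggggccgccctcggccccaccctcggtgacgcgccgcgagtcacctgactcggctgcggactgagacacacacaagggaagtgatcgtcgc
Gabarapl2, chr8:111940453-111940752, plus strand: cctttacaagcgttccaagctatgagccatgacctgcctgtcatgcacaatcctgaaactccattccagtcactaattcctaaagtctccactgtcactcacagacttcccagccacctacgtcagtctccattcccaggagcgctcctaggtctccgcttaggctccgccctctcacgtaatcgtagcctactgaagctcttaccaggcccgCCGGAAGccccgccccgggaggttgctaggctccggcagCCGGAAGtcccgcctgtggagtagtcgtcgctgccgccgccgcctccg
Gabarap, chr11:69991120-69991419, plus strand: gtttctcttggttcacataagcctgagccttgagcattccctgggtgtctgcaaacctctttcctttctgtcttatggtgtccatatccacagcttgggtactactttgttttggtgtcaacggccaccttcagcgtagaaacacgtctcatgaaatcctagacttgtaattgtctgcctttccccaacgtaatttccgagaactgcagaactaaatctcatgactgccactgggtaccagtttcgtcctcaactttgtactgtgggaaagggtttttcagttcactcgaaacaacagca
Atg3, chr16:45158579-45158878, plus strand: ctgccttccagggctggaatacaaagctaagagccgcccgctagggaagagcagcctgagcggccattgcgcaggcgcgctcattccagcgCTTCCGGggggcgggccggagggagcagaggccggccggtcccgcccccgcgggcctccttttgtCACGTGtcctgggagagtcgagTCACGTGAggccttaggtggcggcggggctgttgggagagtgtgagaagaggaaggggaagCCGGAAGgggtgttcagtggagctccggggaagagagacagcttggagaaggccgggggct
Of the genes shown, Gabarapl1, Map1lc3b and Gabarap had no match, Gabarapl2 had 2 to the ETS motif, and Atg3 had 2 to the E-box, of which 1 lay in TCACGTGA, and 2 to the ETS motif. Among the 38 genes, 31 had 35 promoters in the RefSeq table. Those without an entry included Map1lc3a, the ATG8 gene not shown, and Bnip3l and Becn1, the highest members by mean length-scaled level. TCACGTGA was in 1 of the 35 (2.86%), that of Atg3 shown above, against 2.00% of 9753 promoters of genes in the tables and 0.974% of all 32851. The E-box was in 5 (14.3%), against 9.89% and 7.15%, namely in Atg3, Atg5, Atg7, Atg14 and Bnip3. The Atg7 entry (chr6:114670846-114671145, plus strand) lies inside the gene, which starts at 114643127. The GATA motif was in 2 (5.71%), against 6.63% and 11.2%, and the ETS motif in 3 (8.57%), against 18.5% and 8.86%. With so few promoters, none of these counts was tested.

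Receptors hold cargo and an ATG8 protein at once. They took 0.176% of counts, the most of any role, of which Bnip3l made up 78.3% ± 1.65 (SD, n = 3). Bnip3l encodes NIX, a mitochondrial outer membrane receptor known for the clearance of mitochondria from maturing red cells (chromosome 14, 66985238 to 67008877). It was at 1403, 1346 and 1392 CPM in replicates 1, 2 and 3, with a coefficient of variation of 2.20%. That figure is on plain totals, where the highest level, in replicate 1, was 1.04 times the lowest, in replicate 2. After TMM scaling, the log2 difference of replicate 3 from the mean of replicates 1 and 2 was -0.18. That of replicate 1 from the mean of replicates 2 and 3 was 0.14. Red cell markers took 4.91% of counts in replicate 1 and 0.551% in replicate 2. The part of red cell RNA in the Bnip3l level was not tested.

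The Bnip3l reads have a near-identical copy. Bnip3l-ps, a pseudogene in RefSeq (chromosome 12, 18216547 to 18217776), named after its values were seen, matches the Bnip3l transcript at 99.2% over 663 bases. Its row in the tables held 8938, 8434 and 8346 counts, or 331, 335 and 320 CPM, on a length of 724 bases. Its length-scaled mean was 454, and it exceeded Bnip3l by 0.09 ± 0.06 on the log2 scale. How the authors' counting divided reads between these loci is not given in the sources used here, so both levels are uncertain. Together they were at 1734, 1681 and 1712 CPM.

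Bnip3, the related receptor known to be induced by low oxygen, was at 0.704, 0.516 and 1.26 CPM, from 19, 13 and 33 counts. Bnip3l exceeded it by 9.88 ± 0.62 on the log2 scale of length-scaled levels, or 945-fold, the widest gap of the pairs compared (10.8 without division by length). Bnip3 has 3 pseudogene copies of 95.2% to 98.9% identity over 559 to 567 bases, none in the tables, so its level is uncertain in the same way. Fundc1, a further mitophagy receptor of the outer membrane, was at 24.99, 25.8 and 25.4 CPM on plain totals. Bnip3l exceeded it by 5.03 ± 0.06 (log2, length-scaled), and by 5.76 without division by length. Optn, optineurin, a receptor for ubiquitin-marked mitochondria and bacteria, was at 30.5, 28.1 and 29.0 CPM.

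Sqstm1 encodes p62, the receptor of ubiquitin-marked protein aggregates, and was the second highest receptor at 285, 343 and 298 CPM, with replicate 2 above the other two. It exceeded its relative Nbr1 (21.1, 18.5 and 17.3 CPM) by 5.38 ± 0.24 on the log2 scale of length-scaled levels, or 41.7-fold, and by 4.02 without division by length. It exceeded Optn by 3.67 ± 0.19 per length. In GENCODE M21, Sqstm1 overlaps up to 580 exon bases of the opposite-strand gene Mrnip, which was at 0.765 CPM. In the RefSeq coordinates Mrnip ends at 50200116 on chromosome 11, before Sqstm1 starts at 50200152. Pink1, the kinase that marks damaged mitochondria, was at 139, 154 and 154 CPM (chromosome 4, 138313409 to 138326296), a length-scaled level of 63.0 ± 3.64. Tfeb, the transcription factor of lysosome and autophagy genes, was far lower at 2.19, 3.10 and 5.06 CPM, with replicate 3 highest.

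**Figure D3:**
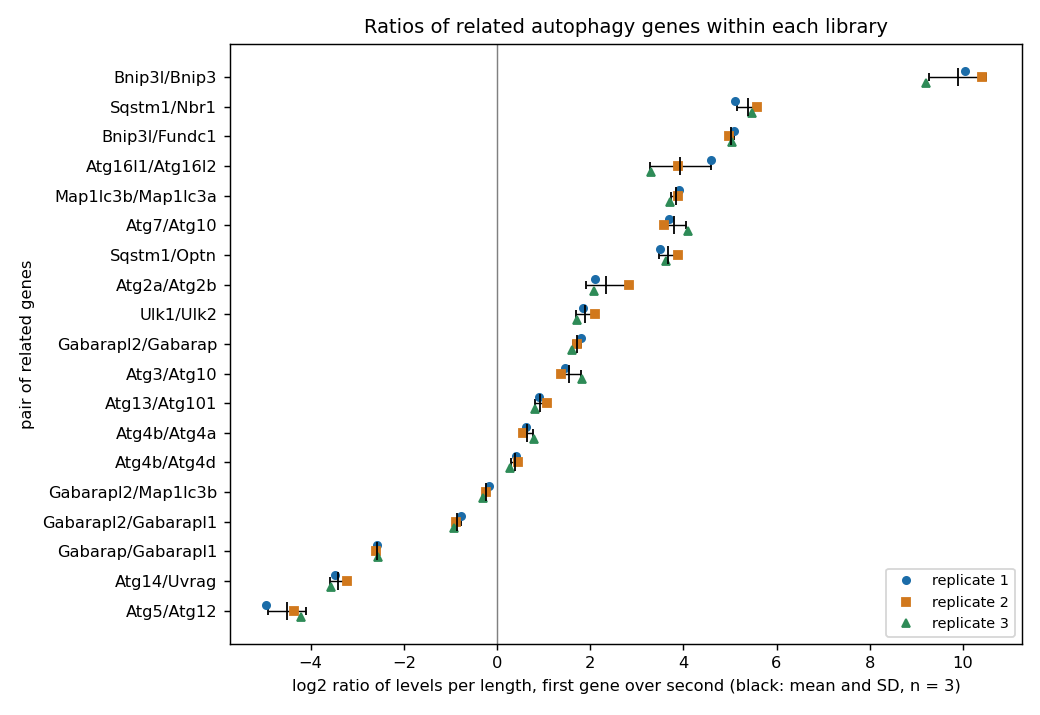
Log2 ratio of length-scaled levels for the 19 pairs of related genes that could be computed, first gene over second, with 1 symbol per replicate and the mean ± SD (n = 3) in black. No pair crosses 0 in any replicate, and the ratios run from -4.51 (Atg5/Atg12) to 9.88 (Bnip3l/Bnip3).

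Most counts of the nucleation genes came from a single gene. Becn1, which encodes Beclin 1, the scaffold of the lipid kinase complex (chromosome 11, 101288258 to 101302286), was at 818, 884 and 787 CPM in replicates 1, 2 and 3, and made up 97.6% ± 0.731 of the counts of its role. Its length-scaled level was 408 ± 24.3, which did not differ from that of Bnip3l (Bnip3l over Becn1, 0.06 ± 0.11 on the log2 scale) or of Gabarapl1 (Becn1 over Gabarapl1, 0.09 ± 0.11) beyond the spread. Becn1 shares up to 1297 exon bases with Cntd1 on the opposite strand in GENCODE M21, and Cntd1 was at 1.32 ± 0.439 CPM.

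The other 5 nucleation genes were all at a length-scaled level of 2.32 or less. Pik3c3, which encodes the catalytic subunit VPS34, was at 2.97, 3.10 and 4.83 CPM, and Ambra1, which positions the complex, at 5.23, 5.68 and 9.42 CPM. Pik3r4 encodes VPS15, the regulatory subunit that VPS34 needs, and was at 0.964, 0.278 and 1.46 CPM from 26, 7 and 38 counts. The exact Poisson 95% interval, which covers counting error only, was 0.112 to 0.573 CPM in replicate 2 and did not overlap those of replicate 1 (0.630 to 1.41) and replicate 3 (1.03 to 2.00). This was not particular to Pik3r4. The intervals of Becn1 also lay apart, at 807 to 829, 872 to 895 and 776 to 798 CPM in replicates 1, 2 and 3. For Tfeb, replicate 1 (1.67 to 2.82) lay apart from replicate 3 (4.23 to 5.99). The share of all genes with such gaps was not counted. Uvrag and Atg14 encode alternative subunits that define a pair of VPS34 complexes, of which the ATG14 form acts in autophagosome formation. Uvrag was at 6.75, 7.50 and 9.65 CPM and Atg14 at 0.593, 0.794 and 0.804 CPM, from 16, 20 and 21 counts. The log2 ratio of Atg14 to Uvrag, on length-scaled levels, was -3.42 ± 0.18. The Uvrag transcript also holds 214 to 345 bases at 95% identity or more with 10 other genes. The highest of these in the tables was Klhl20, at 207 CPM over the whole gene. Its match, 95.6% over 344 bases, was to a transcript that retains an intron. The reads within the matching stretches were not counted. The level of Uvrag and its ratio to Atg14 are therefore uncertain.

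Initiation rests on the ULK complex, the kinase that signals of starvation and energy act on. All 5 genes were detected. Ulk1, the kinase, was at 50.5, 48.1 and 50.4 CPM and made up 53.9% ± 1.69 of the counts of this role. Its relative Ulk2 was at 15.6, 12.4 and 17.2 CPM, and Ulk1 exceeded it by 1.89 ± 0.20 on the log2 scale of length-scaled levels. The adaptor Atg13 was at 17.1, 20.2 and 19.8 CPM and exceeded its partner Atg101 (3.15, 3.30 and 3.83 CPM) by 0.93 ± 0.13 per length (log2), and by 2.47 without division by length. The scaffold Rb1cc1, which encodes FIP200, was the lowest of the role per length (0.713 ± 0.160), at 5.52, 3.73 and 5.82 CPM.

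Membrane supply was led by Atg9a, the scramblase of the vesicles that seed the autophagosome, at 22.1, 26.6 and 23.4 CPM. Atg2a, one of the lipid transfer proteins that feed the growing membrane, was at 6.52, 8.93 and 11.6 CPM, and its relative Atg2b at 2.41, 1.98 and 4.40 CPM. Atg2a exceeded Atg2b by 2.34 ± 0.43 on the log2 scale of length-scaled levels, and by 1.66 without division by length. In GENCODE M21, Atg2b shares up to 383 exon bases with Gskip on the opposite strand, a gene at 20.9 ± 0.413 CPM. In the RefSeq coordinates these genes do not overlap: on chromosome 12, Atg2b ends at 105685297 and Gskip starts at 105685352. Atg9a shares 1072 exon bases with Gm29253 on its own strand in GENCODE M21. The annotation used for counting is not given, so the levels of Atg2b and Atg9a are uncertain. Wipi2, which recruits the conjugation machinery to the lipid mark, was at 6.90, 5.60 and 7.43 CPM.

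Conjugation genes had the lowest median of the 4 roles compared, with 9 of the 10 in the tables detected, but were uneven. Atg12, the ubiquitin-like protein, was highest at 75.3, 70.1 and 72.2 CPM, and Atg7, the activating enzyme for both conjugation systems, came next at 45.3, 42.6 and 54.7 CPM. Atg5, to which ATG12 is joined, was at 2.26, 3.22 and 3.68 CPM and its log2 ratio to Atg12 on length-scaled levels was -4.51 ± 0.40. Atg16l1, which brings that conjugate to the membrane, was at 21.8, 16.04 and 20.3 CPM. Its relative Atg16l2 was at 0.593, 0.715 and 1.38 CPM from 16, 18 and 36 counts, below Atg16l1 in every library by at least 3.30 (log2, length-scaled; mean 3.93 ± 0.65).

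The conjugating enzymes were lower than Atg7. Atg3, which acts on ATG8 proteins, was at 4.75, 4.53 and 5.71 CPM, and Atg10, which acts on ATG12, at 1.37, 1.39 and 1.26 CPM. Atg7 exceeded Atg10 by 3.79 ± 0.26 and Atg3 exceeded it by 1.55 ± 0.25 on the log2 scale of length-scaled levels. The ratio of Atg7 to Atg10 was 5.12 without division by length. The ATG4 proteases trim new ATG8 proteins and release them from lipid. Atg4b was at 3.56, 3.57 and 4.52 CPM, Atg4d at 2.30, 2.22 and 3.18 CPM, and Atg4a at 1.67, 1.75 and 1.88 CPM. Per length, Atg4b exceeded Atg4a by 0.65 ± 0.12 and Atg4d by 0.38 ± 0.09 on the log2 scale. Atg4a has a copy, Atg4a-ps, of 99.3% identity over 2115 bases. In GENCODE M21, Atg4d overlaps up to 792 exon bases of the opposite-strand gene Kri1 (1.89 CPM). The levels of Atg4a and Atg4d are therefore uncertain.

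Ordered by mean length-scaled level, the 38 genes form 37 neighbouring pairs, of which 21 had 1 direction in all 3 libraries and 16 did not. On this scale the upper part of the order was firm below the top 3: Map1lc3b, Gabarapl2, Sqstm1, Gabarap, Pink1, Atg12, Map1lc3a, Fundc1 and Optn followed one another in every library. The gap between Gabarap and Pink1 was small, at 0.04 ± 0.02 on the log2 scale. Without division by length, part of this order reversed in every library. Gabarapl2 then lay below Sqstm1, Gabarap below Pink1, Map1lc3a below Fundc1 and Fundc1 below Optn, while the other neighbours in this run kept their order. In the lower part, no neighbours among Atg2a, Atg4b, Atg5, Ambra1, Tfeb and Pik3c3 kept 1 direction in every library.

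The libraries were then compared for each gene. In edgeR's quasi-likelihood fit across all genes, a gene's dispersion between the 3 libraries was set against the trend for genes of like expression. Of the 34 members tested, 0 passed a Benjamini-Hochberg adjusted p of 0.05, against 0.229% of the 8289 genes tested (19 genes). At an unadjusted p under 0.05 there were also 0 members, against 4.29% of all genes, with 0 to 2 members under the alternatives run, and DESeq2 marked 0 members as dispersion outliers. The smallest p of a member was 0.0644, for Tfeb, followed by 0.0798 for Atg2b, both with an adjusted p of 0.982. The 4 genes under a mean of 1 CPM, Pik3r4, Atg14, Atg16l2 and Bnip3, were not in this test. The median coefficient of variation was 6.58% for the 19 members at 10 CPM or more, against 7.43% for all such genes, and 22.5% for the 19 below 10 CPM, against 22.0%.

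Most low members were highest in replicate 3, as were most low genes of the tables. After TMM scaling, which lowers replicate 3 by 0.19 on the log2 scale relative to the others, 14 of the 19 members under 10 CPM (73.7%) were highest in replicate 3, against 55.5% of all 6778 such genes. With plain totals it was 18 of 19, against 73.1%, and with DESeq2 size factors 12 of 19, against 51.2%. Of the 19 members at 10 CPM or more, 1 (5.26%) was highest in replicate 3, against 22.4% of such genes, and with plain totals 5 of 19, against 59.1%. The median TMM-scaled log2 difference of replicate 3 from the other libraries was 0.25 for the low members, against 0.20 for all low genes, and -0.16 for the higher members, against -0.10. Among low members it ran from -0.32 for Atg10 to 1.25 for Pik3r4, and the next highest were Atg16l2 (0.87), Bnip3 (0.85), Atg2b (0.81), Tfeb (0.76) and Ambra1 (0.59). Replicate 2 had 7 counts of Pik3r4, and against replicate 1 alone its difference was 0.39. Leukocyte markers other than Lyz2 were also highest in replicate 3 (271 CPM, against 176 and 165 CPM), and their part in these differences was not tested.

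**Figure D4:**
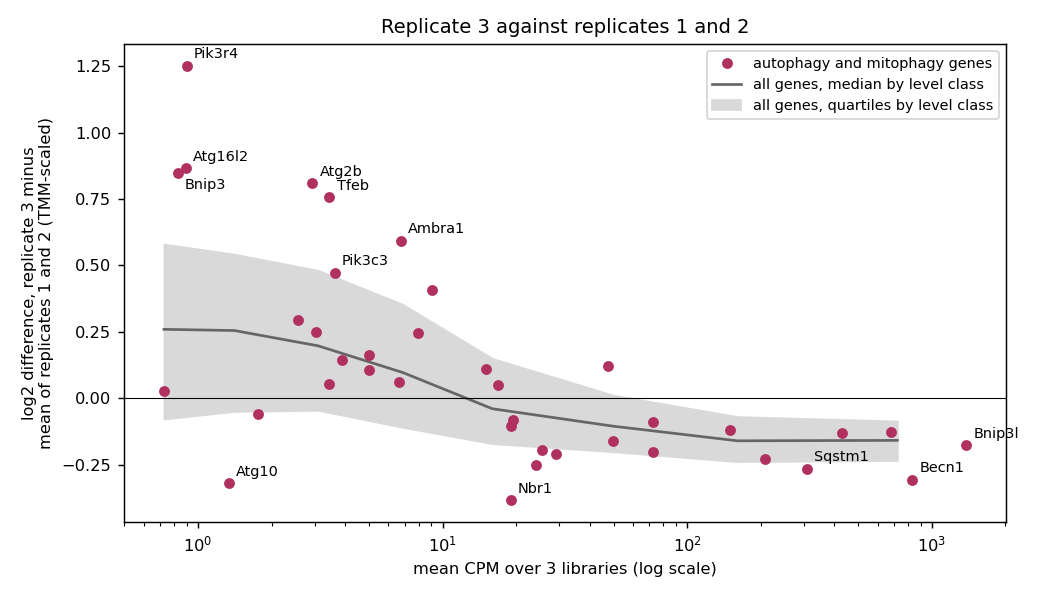
TMM-scaled log2 difference of replicate 3 from the mean of replicates 1 and 2, by mean CPM (log scale), for the 38 members (points) and for all genes (line, median; band, quartiles within level classes). The median of all genes is 0.26 below 1 CPM and -0.16 above 300 CPM, and the highest member is Pik3r4 at 1.25.

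The steps around these genes were read from a list of 76 other genes of the pathway. Of these, 73 (96.1%) were in the tables, against 41.6% of RefSeq protein-coding genes, and 69 of the 73 (94.5%) reached 1 CPM in every library, against 77.7% of all genes in the tables. Their median length-scaled level was 3.55, against 1.49 for all genes. Of 70 tested for spread with edgeR, 0 passed an adjusted p of 0.05, against 0.229% of all genes. An unadjusted p under 0.05 was found for 4 (5.71%; Sh3glb1, Foxo1, Rubcn and Nipsnap1), near the 4.29% of all genes. Among these groups lysosome genes were highest, with a median length-scaled level of 9.14 and all 13 detected. Ctsd, the protease cathepsin D, was at 3065 ± 96.6 CPM and Lamp1, a major protein of the lysosome membrane, at 746 ± 36.2 CPM (SD, n = 3). Fusion genes had the lowest median of these groups, 2.05, with 12 of 13 detected, led per length by Rab7, the GTPase of late endosomes, at 40.6 ± 0.719 CPM and the SNARE gene Vamp8 at a length-scaled level of 15.3 ± 0.973.

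Upstream of the ULK complex, the energy-sensing kinase AMPK was represented mainly by its beta subunits. Prkab2 was at 307 ± 14.8 CPM and Prkab1 at 107 ± 10.9 CPM (SD, n = 3), and all 13 signalling genes in the tables were detected. Of other assembly genes all 11 in the tables were detected, led by the endoplasmic reticulum scramblase gene Vmp1 at 171 ± 9.32 CPM and Wdr45, a relative of the WIPI genes, at 81.8 ± 6.74 CPM. Of other receptors and mitophagy regulators 14 of 17 were detected, led per length by Fkbp8, a mitochondrial receptor, at 208 ± 19.8 CPM and Tollip at 312 ± 2.34 CPM. Among transcription factors all 6 were detected. Tfe3, a relative of Tfeb, was highest at 26.3 ± 2.99 CPM, followed by Foxo3 at 15.9, 14.0 and 18.3 CPM in replicates 1, 2 and 3.

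**Figure D5:**
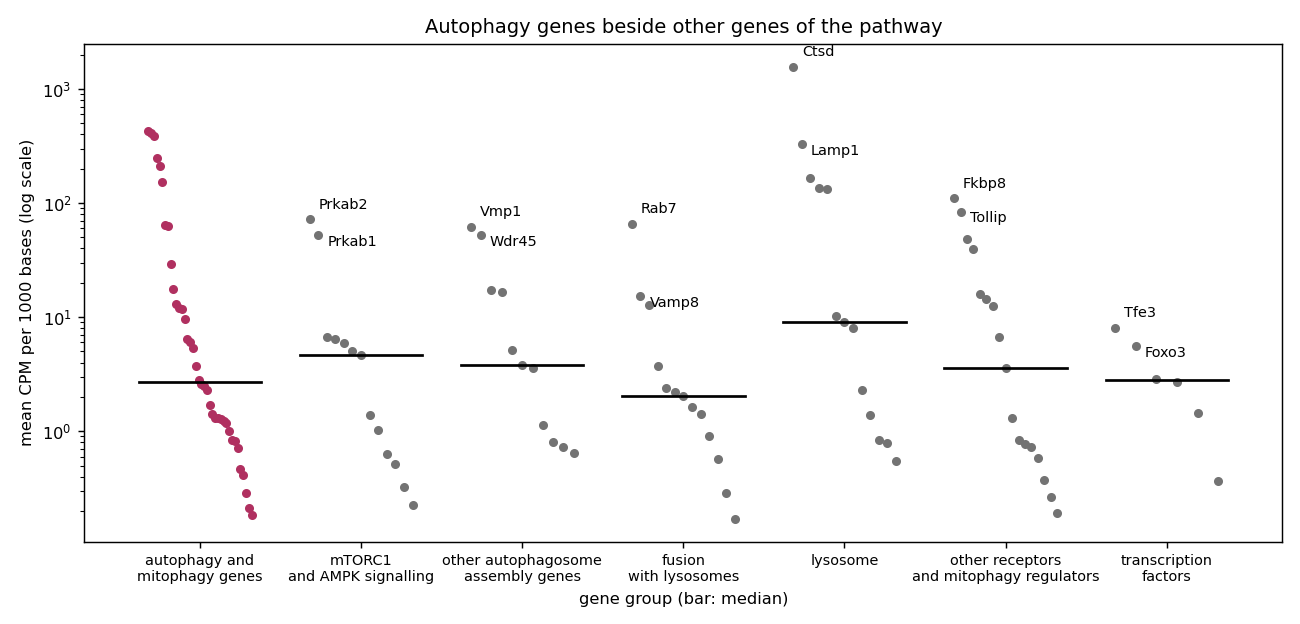
Mean length-scaled level (CPM per 1000 bases, log scale) of each of the 38 members and of 73 other genes of the pathway, by group, with a bar at each group's median. Among the groups of other genes the lysosome has the highest median (9.14), below the medians of the ATG8 family (212) and receptors (12.6). The median of the 2 regulators (32.1) is only the midpoint of Pink1 at 63.0 and Tfeb at 1.22. The roles of the members are not drawn apart here. Ctsd, at 1569, is the only other gene above the highest member, Bnip3l at 426.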

How the data were processed

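Platelet RNA of 3 libraries was measured by sequencing. For each library the authors deposited a table of unnormalized read counts by Entrez gene number, beside gene lengths in bases. Per the submitters' processing notes, the genome was mm10 and the software was edgeR 3.11.5, featureCounts, Subread and CASAVA 1.8.2. The annotation, strand setting and treatment of multiply mapped reads were not given in the sources used here. The tables hold the same 9822 genes, each at 0.238 CPM or more in at least 1 library.

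The 40 symbols were matched to Entrez numbers through the RefSeq gene table (GRCm38.p6), and all 40 matched. CPM used the plain total of counts. Ratios within a library added a prior count of 0.5. The members, roles, pairs, other pathway genes and markers were chosen with earlier results of these data known. A synonym that listed 1 other pathway gene a second time was removed. All 40 members are named, and of the other pathway genes the 2 highest of each group by length-scaled level. Genes named for an unadjusted p, and Bnip3l-ps, were added after their values were seen.

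Spread was fitted with edgeR 4.0.16 (limma 3.58.1, R 4.3.3), TMM scaling and an intercept, over genes averaging at least 1 CPM. The ratio of each gene's quasi-dispersion (2 residual degrees of freedom) to the trend gave a one-sided F test, adjusted by Benjamini-Hochberg over all genes fitted. The test was run on simulated data first. DESeq2 1.42.0 was an alternative. Copies were sought with BLAST+ 2.17.0 among GENCODE M21 transcripts (95% identity over at least 200 bases) and overlaps among its exons. Other steps used Python 3.11.15, pandas 2.3.3, NumPy 2.4.6, SciPy 1.17.1, Biopython 1.88 and matplotlib 3.10.9.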

Additional observations from a re-analysis of the deposited data

How the results depend on the processing

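The direction of all 6 role differences held under every alternative tried, except initiation against conjugation, which reversed to -1.39 on the log2 scale when length-scaled levels were summed over members. The sums gave 4.07 for the ATG8 family against conjugation, 5.46 against initiation and 0.60 against receptors, and 4.86 for receptors against initiation. With the mean of log2 levels in place of the median, the ATG8 family exceeded conjugation by 5.76, initiation by 5.28 and receptors by 2.88, receptors exceeded conjugation by 2.88 and initiation by 2.40, and initiation exceeded conjugation by 0.48. Without division by length, these 6 differences were 5.92, 3.79, 2.93, 2.99, 0.86 and 2.13 in the same order. With the nucleation genes added to initiation, the ATG8 family exceeded it by 6.54, receptors exceeded it by 2.46, and it exceeded conjugation by 0.82. The cause of these changes was not tested. Counting absent members as 0, chosen after seeing the data, moved no difference by more than 1 SD.

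Of the 19 ratios between related genes, 15 moved by more than 1 SD without division by length and 0 reversed. Detection gave 37 members at 0.5 CPM, 23 at 5 CPM and 25 at a length-scaled level of 1. In the spread test 0 members passed under the 10 alternatives, and in the 9 refits with edgeR the lowest adjusted p of a member was 0.807 to 0.988. An unadjusted p under 0.05 was reached by 1 member with DESeq2 size factors, 1 with no filter, 1 without replicate 1, 1 without replicate 2 and 2 without replicate 3. Over all genes the 19 calls became 0 with the robust prior, 11 with plain totals, 11 with a filter at 5 CPM, 13 without red cell and leukocyte markers (also chosen after seeing the data), 23 with no filter, 28 with DESeq2 size factors, 49 as DESeq2 outliers, and 1, 29 and 32 without replicates 1, 2 and 3. No paired analysis was possible because there is 1 group. Depth limits the members under 1 CPM, which rest on 7 to 38 counts per library.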
